A study of Mus musculus with 65 samples.

Results

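Of the 24465 gene symbols counted in mouse embryonic stem cells and embryoid bodies, 67 peaked at day 3 of differentiation with retinoic acid. They were chosen by their values in the 6 wild-type RNA-seq libraries sequenced in 2019. A member had a mean of at least 5 CPM (counts per 1000000 reads assigned to genes) at day 3, and that mean was at least 4 times the mean at day 0 and the mean at day 6, with 0.1 CPM added to each mean. Symbols starting with Hox or Cyp26 and 10 further named genes were left out, which removed 8 genes that passed both thresholds: Cd34, Cdh5, Clec1b, Emcn, Hoxb1, Kdr, Plvap and Tek. The 67 members are 0.666% of the 10059 remaining genes that reached 5 CPM at day 3. Because the 2019 libraries selected the members, values in those libraries are given as a description with no test.

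Day 0 cells were embryonic stem cells kept undifferentiated with leukaemia inhibitory factor (LIF). Cells of days 3 and 6 were embryoid bodies, free-floating aggregates kept in constant rotation without LIF and with 10 µM all-trans retinoic acid. The 2019 wild-type series had 2 libraries at each of days 0, 3 and 6. The 2020 libraries came from days 0 and 6 only, of wild-type cells (1 library at day 0, 2 at day 6), of a CRISPR/Cas9 line labelled as a knockout of H3.3A, a gene for the histone variant H3.3 (2 libraries a day), and of a CRISPR/Cas9 line labelled H3.3K27A, by its name a replacement of lysine 27 of H3.3 with alanine (2 libraries a day). Chromatin immunoprecipitation (ChIP-seq) of wild-type cells at days 0 and 6 used 4 antibodies in duplicate, named for H3.3K27me3, H3K27me3, H3.3 and H3. The sources used here do not say how many clones each edited line represents, which H3 isoforms an antibody distinguishes, or whether RNA duplicates were separate cultures, so a p-value here covers the spread among these libraries and no more. No day 3 library was present in the 2020 RNA series or in the ChIP-seq, and the day 3 peak itself was measured in the 2 libraries of 2019 alone.

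Gene-assigned reads came to between 6.97 and 12.7 M (M, 1000000 reads) per 2019 library and between 14.3 and 22.0 M per 2020 library. Reads that the counting assigned to no gene made up 25.7% to 43.3% of the 2019 libraries and 11.3% to 16.8% of the 2020 libraries, so levels set side by side across the years also differ in this. H3f3a, the mouse symbol of the H3.3A gene, was between 111 and 197 CPM in the wild-type libraries, between 18.3 and 25.9 CPM in the knockout and between 19 and 23.6 CPM in the line labelled H3.3K27A. H3f3a was thus as low in that line as in the knockout, and this level does not tell the edited lines apart. H3f3b, the other H3.3 gene measured, did differ between them. It was at 435 and 432 CPM at day 0 and 691 and 686 at day 6 in H3.3K27A. In the knockout it was at 746 and 790 CPM, then 1148 and 1178. The 2020 wild type had 689 CPM at day 0 and 1050 and 1043 at day 6. The sources used here do not say how the H3.3K27A allele is carried or counted, and the line is called by its label. These are bulk samples, in which fewer cells of a type and less RNA per cell cannot be told apart.

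Blood vessels and blood arise from mesoderm that passes through a shared vascular and blood progenitor. The ETS-family transcription factor Etv2 starts that program, the related ETS factors Fli1 and Erg and the SOX factors Sox7 and Sox18 carry it into endothelium, and adhesion and junction genes such as Esam and Cldn5 mark the finished vessel lining. Etv2 is known for being switched on only briefly. Trimethylation of lysine 27 of histone H3 (H3K27me3) is the mark of Polycomb repressor complexes and covers many developmental promoters in stem cells. H3.3 is the variant of H3 that is deposited outside DNA replication.

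Of the 67 members, 20 belonged to a list of 79 endothelium and blood genes and are called the vascular-list members below. The remaining 47 are called the other members. Vascular-list genes at day 3 were not limited to the members. Of the 55 listed genes that reached 5 CPM at day 3, 20 members and 26 non-members had their highest 2019 mean at day 3, 4 non-members had it at day 0 and 5 at day 6. Of these 26, 7 passed both thresholds and were left out by name, so the rule fixes their peak. The 5 CPM minimum was itself set on day 3, so these counts are a description. Of the other members, Bmp6, Tagln, Edn1, Eomes, Meox1, Rsad2 and Sycp2 were in at least 1 of the other lists, and 40 were in none of the 27. No member was in the lists for the retinoic acid response, pluripotency, neural progenitors, neurons, proliferation or p53 targets, nor in several further lists. The 6 lists named held from 8 (neurons) to 24 (proliferation) genes that reached 5 CPM at day 3. Members are 0.666% of all such genes, so nothing is read from their absence.

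The rule used the mean of each day, and the single libraries are described here. For all 67 members, both day 3 libraries lay above every day 0 and every day 6 library of 2019. The rule asks for a day 3 mean at least 4 times both flanking means in these same libraries, so this supports nothing. The ratio of the duplicates at day 3 (B2 to B1) ran from 0.66 for Il2rg to 1.26 for Myzap with a median of 1.01, and 66 members were within 1.5 times. The median member was at 1.03 CPM at day 0, 16.6 CPM at day 3 and 2.11 CPM at day 6. The day 3 mean was a median of 17.7 times the day 0 mean and 6.55 times the day 6 mean. Day 6 was the higher of the flanking days for 47 members, and day 0 for 20. Both day 6 libraries were above both day 0 libraries for 41 members, where 54.5% of the 10059 genes did the same, and below them for 11, where 34.9% did. The rule used both days, so nothing is read from these shares.

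**Figure D1:**
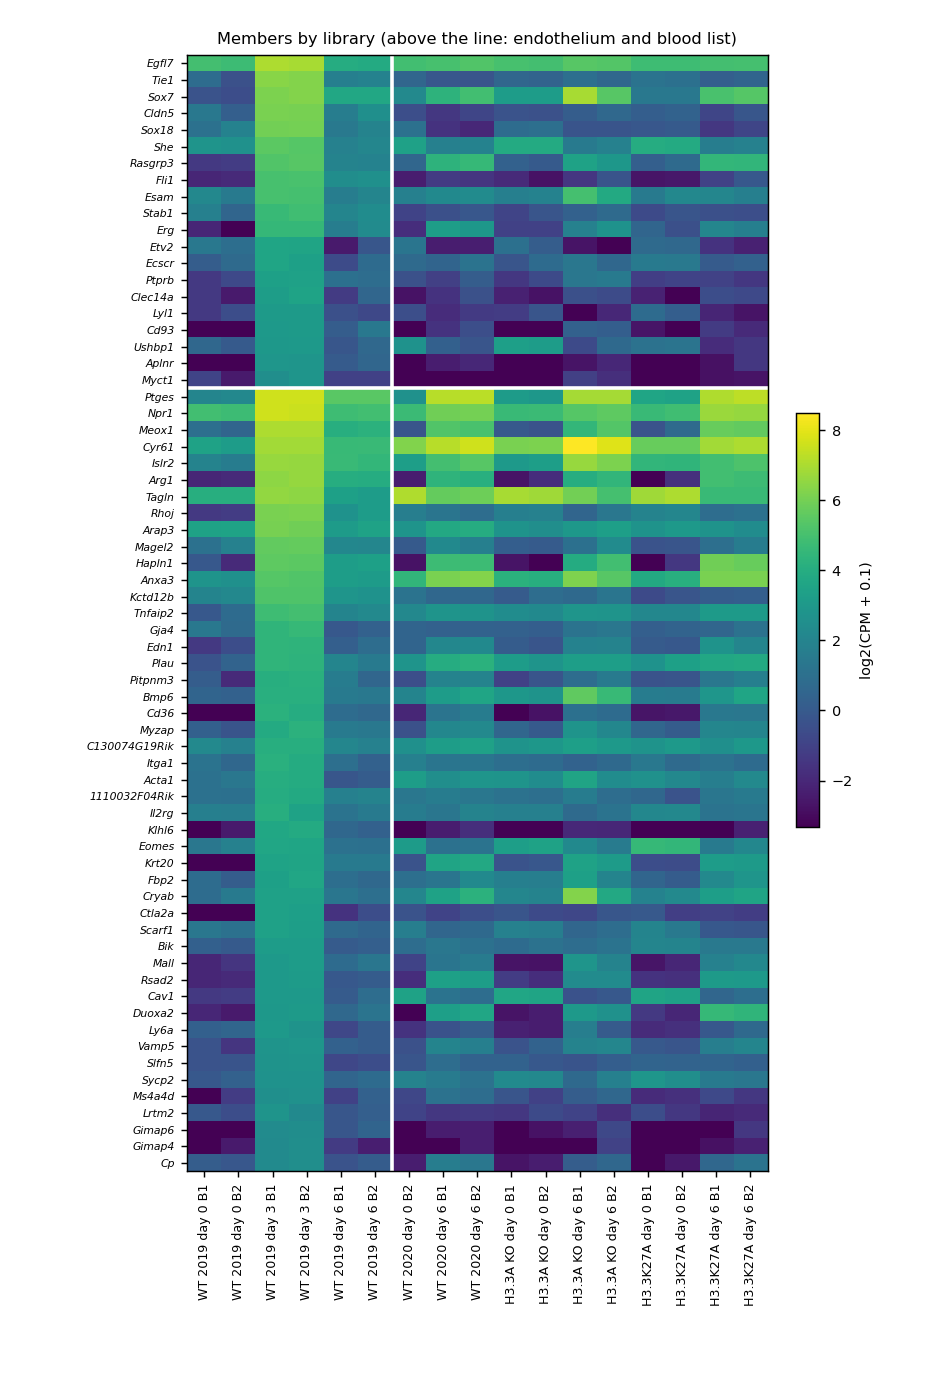
Level of each of the 67 members (rows) in each of the 17 RNA-seq libraries (columns), as colour on a log2(CPM + 0.1) scale. The 20 vascular-list members are above the horizontal white line and the 2020 libraries are right of the vertical one. Among the 2019 libraries all members were brightest at day 3, and in the 2020 series Ptges, Cyr61 and Anxa3 were bright at day 6 while Tie1, Cldn5, Sox18 and Fli1 were dark.

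Among the transcription factors, Etv2 was at 2.58 and 1.84 CPM at day 0, 12.4 and 11.6 at day 3 and 0.0787 and 0.786 at day 6. Its day 6 libraries lay below its day 0 libraries. Fli1 had 1 and 2 counts at day 0, then 33.3 and 34.2 CPM at day 3 and 5.43 and 6.00 CPM at day 6. From 3 counts in all at day 0, the ratio of day 3 to day 0 for Fli1 was 213 with a 95% counting interval of 72.7 to 1036. Erg had 1 count in the day 0 libraries together and reached 23.1 and 23.4 CPM at day 3, a ratio of 441 with an interval of 78.8 to 17442, then 3.07 and 5.11 CPM at day 6. So Fli1 and Erg kept day 6 levels above their day 0 levels and Etv2 did not.

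The SOX factors also differed in how far they came down. Sox18 went from 2.01 and 3.67 CPM at day 0 to 63.4 and 63.7 at day 3 and 2.68 and 3.83 at day 6, with days 0 and 6 overlapping. Sox7 went from 0.718 and 0.584 CPM to 70.7 and 78.7, and was at 13.6 in each day 6 library, above day 0. Sox7 is also a marker of primitive endoderm, the extraembryonic lineage that lines the yolk sac. Lyl1, a basic helix-loop-helix factor of blood and endothelium, was at 0.287 and 0.584 CPM at day 0, 8.51 and 8.65 at day 3 and 0.629 and 0.492 at day 6. Among the other members, Eomes, a T-box factor of the primitive streak, was at 2.44 and 3.59 CPM, then 12.6 and 12.3, then 2.05 and 1.97. Meox1, a homeobox factor of somites, was at 1.87 and 1.34 CPM, then 133 and 132, then 16.6 and 19.4, so its day 6 libraries stayed above day 0. Mesoderm markers that are not members were low at day 3, with T at 0.253 and 0 CPM and Mixl1 at 0.0843 and 0.315. Mesp1 was at 0.253 and 0.0787 CPM at day 3 and Tbx6 at 1.52 and 1.10. Hand1 was at 1.60 and 1.34 CPM at day 3 and highest at day 6, at 3.07 and 3.83.

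Receptors and surface proteins of endothelium made up much of the vascular-list group. Tie1, a receptor tyrosine kinase of the angiopoietin system, was at 1.72 and 0.668 CPM at day 0, 83.8 and 77.6 at day 3 and 3.3 and 3.64 at day 6. Ptprb, the endothelial receptor tyrosine phosphatase, was at 0.287 and 0.501 CPM, then 10.4 and 10.7, then 1.97 and 1.77. Both kept day 6 libraries above day 0. Cd93, a C-type lectin-like receptor, had 0 counts in both day 0 libraries and 8.01 and 8.65 CPM at day 3, at least 52.7-fold higher than the floor of 3 counts over the day 0 group, and 1.02 and 2.56 CPM at day 6. Clec14a, of the same receptor family, had 3 counts at day 0 and 9.27 and 11.2 CPM at day 3, a ratio of 65.0 with an interval of 22.0 to 317. Aplnr, the apelin receptor, had 0 counts at day 0, 7.16 and 7 CPM at day 3, at least 44.7-fold higher, and 0.944 and 1.38 CPM at day 6. Stab1, a scavenger receptor, had 3.45 and 1.34 CPM at day 0, 24.9 and 28.8 at day 3 and 4.01 and 5.21 at day 6.

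Junction genes, signalling proteins and secreted vascular factors differed in where they ended. Cldn5, the tight junction claudin of endothelium, was at 2.58 and 1.09 CPM at day 0, 68.7 and 66.5 at day 3 and 3.15 and 5.80 at day 6. Esam, an endothelial adhesion molecule, was at 4.45 and 2.76 CPM, then 33 and 31.9, then 3.07 and 4.03, so its days 0 and 6 overlapped. Egfl7, a secreted regulator of vessel growth, was at 31.0 and 26.9 CPM at day 0, 133 and 124 at day 3 and 15.7 and 14.6 at day 6. It ended below its stem cell level, as did She, an adaptor protein with an SH2 domain, at 6.75 and 6.26 CPM, then 45.7 and 41.4, then 3.54 and 4.13. Rasgrp3, a Ras guanine nucleotide exchange factor, went from 0.287 and 0.334 CPM to 39.0 and 43.1 and then 3.78 and 3.64. Gja4, the gap junction connexin of arteries, is an other member, with 2.58 and 1.59 CPM, then 21.3 and 23.8, then 0.865 and 1.18. Edn1, which encodes the vasoconstrictor endothelin, went from 0.287 and 0.584 CPM to 21.3 and 20.4 and then 1.10 and 1.77.

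Several members have their best known roles outside endothelium. Ptges, the prostaglandin E synthase, was at 4.02 and 4.43 CPM at day 0, 199 and 196 at day 3 and 43.9 and 44.3 at day 6. Npr1, the receptor for atrial natriuretic peptide, was at 29.6 and 27.5 CPM, then 196 and 183, then 28.2 and 29.7, with days 0 and 6 overlapping. Cyr61, a secreted matrix protein and textbook target of the YAP and TEAD regulators, was at 11.1 and 9.18 CPM, then 114 and 114, then 25.1 and 25.8. Islr2, a neuronal leucine-rich repeat protein, was at 3.73 and 3.01 CPM, then 100 and 97.3, then 25.6 and 22.2. Arg1, the urea cycle arginase, had 3 counts at day 0 and 89.1 and 97.5 CPM at day 3, a ratio of 590 with an interval of 202 to 2863, and 16.4 and 15.7 CPM at day 6. Tagln, an actin-binding protein of smooth muscle, was at 16.7 and 16.9 CPM, then 96.5 and 88.3, then 10.5 and 9.04, below its day 0 level. Ptges, Cyr61, Islr2 and Arg1 ended above day 0.

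Further other members followed the same course. Rhoj, a small GTPase expressed in endothelium, went from 0.287 and 0.334 CPM at day 0 to 69.3 and 70.3 at day 3 and 6.29 and 9.04 at day 6. Hapln1, a link protein of the hyaluronan matrix, went from 0.861 and 0.167 CPM to 46.3 and 46.0 and then 9.36 and 10.3. Bmp6, a bone morphogenetic protein ligand, went from 1.29 and 1.17 CPM to 17.4 and 17.3 and then 2.83 and 2.56. Cd36 (fatty acid and thrombospondin receptor), Krt20 (an intestinal keratin), Ctla2a (a cysteine protease inhibitor) and Gimap6 (an immune GTPase) had 0 counts at day 0, and their day 3 level was at least 108, 74.0, 65.3 and 33.4-fold above the floor. Gimap6 and its relative Gimap4 start 23.7 kb apart on chromosome 6.

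In all, 14 members had a day 3 mean at least 10 times the higher flanking mean, and 18 had a ratio below 5. The members closest to the threshold were Eomes at 4.02, Sycp2, a synaptonemal complex gene, at 4.02 and C130074G19Rik at 4.05. Just outside lay Pik3ap1 at 3.95, AU015836 at 3.94 and Pmp22 at 3.93. Pmp22 had 94.8 and 92.2 CPM at day 3 and 22.0 and 25.4 at day 6, so it was kept out by its day 6 level. Of the 3 nearest members, Eomes and C130074G19Rik were limited by day 0 and Sycp2 by day 6.

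The vascular label was set against 19 marker genes of endothelium and blood in the same 2019 libraries, as a description. Their summed level was 104 and 123 CPM at day 0, 981 and 988 at day 3 and 166 and 174 at day 6. Of these markers, Etv2, Sox18, Tie1 and Cldn5 are members and 6 more (Kdr, Cdh5, Tek, Plvap, Cd34 and Emcn) passed both thresholds and were left out by name, so the rule fixes the day 3 peak of these 10 and it supports nothing. Kdr, the VEGF receptor that marks vascular progenitors, was at 223 and 225 CPM at day 3, and Cdh5, the endothelial cadherin, at 111 and 116. The 9 markers that did not pass summed to 73.5 and 93.2 CPM at day 0, 151 and 165 at day 3 and 106 and 98.7 at day 6. Among them, the blood and endothelial regulators Tal1 (20.6 and 24.4 CPM), Lmo2 (33.1 and 33.4) and Runx1 (9.10 and 9.91) had their highest levels at day 3. Flt1, a VEGF receptor, was highest at day 6, at 78.7 and 72.7 CPM against 26.3 and 32.2 at day 3. Pecam1, an endothelial adhesion molecule that stem cells also express, was no higher at day 3 (57.1 and 59.6 CPM) than at day 0 (64.6 and 85.1). The red cell genes were under 1 CPM at day 3, with the embryonic globins Hbb-y at 0.758 and 0.787 and Hbb-bh1 at 0.169 and 0.393, and the factor Gata1 at 0.0843 and 0.393. Markers of primitive and visceral endoderm were also higher at later days, from 11.2 and 11.6 CPM summed over 11 genes at day 0 to 717 and 780 at day 3 and 918 and 835 at day 6, without a peak at day 3, and their part in the members' levels was not tested.

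Promoter sequence was compared next, since it is a property of the members that the selection did not use. RefSeq promoters (GRCm38.p6, 250 bases before to 50 after the start) were found for 47 of the 67 members, 12 of them on the vascular list, and for 27025 genes in all. Of 12 motifs searched on both strands, GGAATG, the core bound by TEAD factors, was present in 15 of the 47 promoters (31.9%) against 14.7% of all promoters. It was in 13 of 35 promoters of other members (37.1%) and in 2 of 12 of vascular-list members (16.7%), the latter near the share of all promoters. The TEAD motif lay upstream of the start in Cyr61 (chr3:145650043-145650128, minus strand, first base 103 bases before the start), Islr2 (chr9:58204483-58204568, minus strand, 209 bases), Edn1 (chr13:42301229-42301314, plus strand, 207 bases), Acta1, the skeletal muscle actin (chr8:123894776-123894861, minus strand, 46 bases), and Clec14a (chr12:58269343-58269428, minus strand, 130 bases). These stretches are shown 5′ to 3′ in the direction of the gene because they place the motif in members whose levels are described here. In each, the capitals mark CATTCC, the reverse complement of GGAATG.
Cyr61: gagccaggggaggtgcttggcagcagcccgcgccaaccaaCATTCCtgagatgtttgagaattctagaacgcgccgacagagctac
Islr2: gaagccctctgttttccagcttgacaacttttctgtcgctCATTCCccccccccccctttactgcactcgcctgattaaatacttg
Edn1: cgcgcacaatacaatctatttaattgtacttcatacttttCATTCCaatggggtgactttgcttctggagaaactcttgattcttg
Acta1: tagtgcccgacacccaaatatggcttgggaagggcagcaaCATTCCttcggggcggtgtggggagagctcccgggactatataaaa
Clec14a: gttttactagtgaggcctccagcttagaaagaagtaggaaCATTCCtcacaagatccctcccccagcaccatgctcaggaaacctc

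GGAAGT, the core of ETS factors such as Etv2, Fli1 and Erg, was present in 15 of the 47 promoters (31.9%) against 24.1% of all promoters, in 4 of 12 vascular-list and 11 of 35 other promoters. It is shown for 4 endothelial genes, with the ETS core in capitals as GGAAGT or its reverse complement ACTTCC. The stretches are Tie1 (chr4:118489886-118489971, minus strand, 82 bases before the start), Egfl7 (chr2:26580883-26580968, plus strand, 160 bases), Rhoj (chr12:75308146-75308231, plus strand, 127 bases) and Myct1 (chr10:5593682-5593727, plus strand, 6 bases).
Tie1: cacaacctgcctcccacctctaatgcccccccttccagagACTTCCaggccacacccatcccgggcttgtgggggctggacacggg
Egfl7: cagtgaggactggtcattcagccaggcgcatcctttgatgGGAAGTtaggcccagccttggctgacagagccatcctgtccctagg
Rhoj: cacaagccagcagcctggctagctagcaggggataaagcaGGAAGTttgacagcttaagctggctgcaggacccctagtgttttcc
Myct1: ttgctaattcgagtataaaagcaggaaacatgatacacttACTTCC

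The remaining 10 motifs are given as shares of members against shares of all promoters. TATAAA was in 11 of 47 (23.4% against 14.2%), AGGTCA, the nuclear receptor half-site, in 6 (12.8% against 16.0%), AGATAA, the GATA core, in 6 (12.8% against 11.4%) and ACAAAG, read by SOX and TCF factors, in 4 (8.51% against 18.7%). TTTATG of CDX factors was in 4 (8.51% against 12.2%), CACGTG, an E-box, in 2 (4.26% against 7.24%), TGTTTAC of forkhead factors in 2 (4.26% against 3.52%) and AGGTGTGA of T-box factors in 1 (2.13% against 1.28%). DR5 and DR2, direct repeats read by retinoic acid receptors, were in 0 of 47, beside 0.0962% and 0.266% of all promoters. A match here is a string of letters in the window, and motifs can overlap. Members had a median of 10 CpG pairs in 300 bases (7 for all promoters), while 25.5% of members and 35.2% of all promoters had 15 or more.

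The 2020 wild-type embryoid bodies did not enter the selection. At day 6 of 2020, the vascular-list members summed to 95.6 and 116 CPM, against 68.1 and 81.5 at day 6 and 699 and 697 at day 3 of 2019. The other members summed to 759 and 866 CPM, against 269 and 275 at day 6 and 1659 and 1631 at day 3 of 2019. Gene by gene, both 2020 day 6 libraries were above both 2019 day 6 libraries for 38 of 67 members, beside 52.1% of the 10059 genes, namely 5 of 20 vascular-list and 33 of 47 other members. They were below for 16, beside 34.2%, namely 10 of 20 and 6 of 47. The 2019 levels used here entered the rule, so these shares are a description. The vascular-list sum of 2020 rested on few genes, with Egfl7 at 33 and 38.2 CPM, Sox7 at 19.7 and 30.0 and Rasgrp3 at 19.5 and 23.7.

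Most vascular-list members were at very low levels in the 2020 wild type. The mean at day 6 was under 1 CPM for 19 members, beside 0.875% of the 10059 genes, and 13 of these 19 were on the vascular list. Members are low at day 6 of 2019 by the rule, so this share is a description. Tie1 was at 0.823 and 0.763 CPM, Sox18 at 0.228 and 0.153, Fli1 at 0.320 and 0.254, and Cldn5 at 0.274 and 0.458. All 4 were below their 2019 day 6 libraries. At the other end, 5 members exceeded both 2019 day 3 libraries in both 2020 day 6 libraries, beside 55% of the 10059 genes: Cyr61 (148 and 199 CPM), Anxa3, a calcium-dependent phospholipid-binding protein (69.0 and 79.1), Cryab, a small heat shock protein (11.1 and 19.3), Rsad2, an interferon-induced antiviral gene (10.4 and 9.56), and Duoxa2, the maturation factor of a dual oxidase (9.92 and 12.7). The rule chose members for a high day 3 of 2019, so few could exceed it, and nothing is read from this share. The year, the sequencing and the share of reads assigned to no gene differ between these series, so the comparison was not tested.

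**Figure D2:**
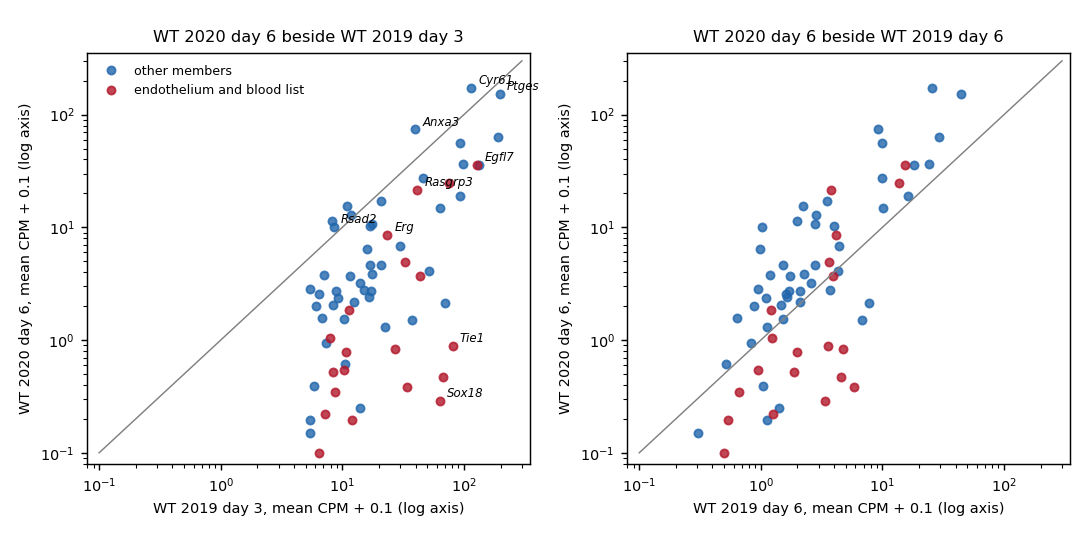
Mean CPM (plus 0.1, log axes) of each member in the 2 wild-type day 6 libraries of 2020 (vertical axis) beside its 2019 mean on the horizontal axis, at day 3 in one panel and day 6 in the other, with vascular-list members in red and other members in blue. Most points fall below the line of equal level against day 3, and against day 6 red points lie below it more often than above while blue points lie mostly above it. The 2019 levels were used by the rule that chose the members.

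**Figure D3:**
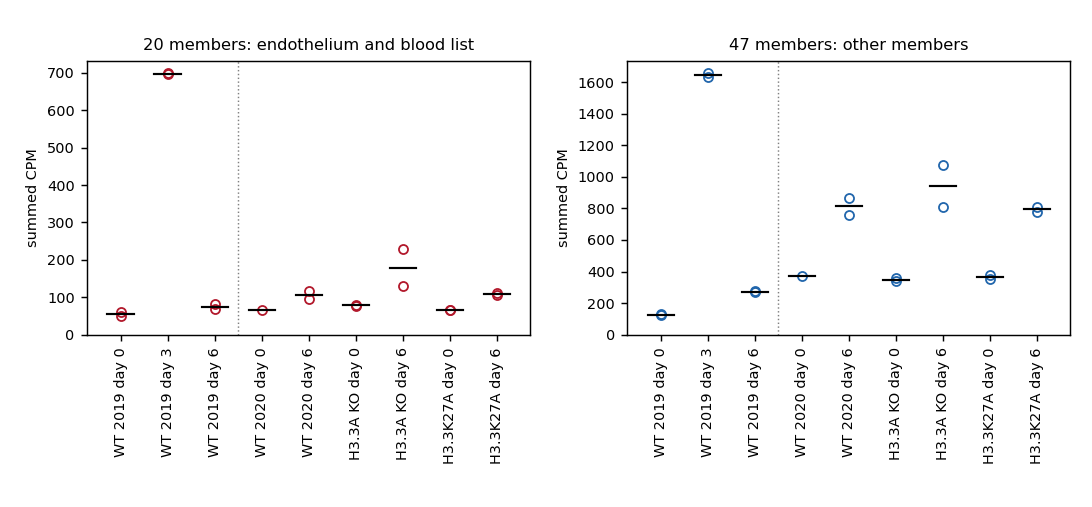
Summed CPM of the 20 vascular-list members and of the 47 other members, with 1 point per library and a black line at the mean of each group. The vascular-list sum was 699 and 697 CPM in the 2 day 3 libraries, and the 2 knockout day 6 libraries, at 228 and 129 CPM, lie apart from each other.

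Change from day 0 to day 6 was tested in the 2020 libraries with edgeR's quasi-likelihood test over 14760 genes. The call was a Benjamini-Hochberg adjusted p below 0.05. Log2 fold changes are given with a standard error (SE) derived from the test. It is the absolute log2 fold change divided by the square root of the F statistic. The log2 changes use library sizes rescaled by edgeR (TMM scaling), and the CPM use all gene-assigned reads. The CPM beside a log2 change can therefore give a different size of change. Of the 67 members, 62 had enough counts to be tested, and Klhl6, Aplnr, Myct1, Gimap6 and Gimap4 did not. In wild type, 26 of 62 members were higher at day 6 (36% of all genes tested) and 13 were lower (34.8%). Vascular-list members were 4 higher and 5 lower of 18, with a median log2 change of -0.27, and other members were 22 higher and 8 lower of 44, with a median of 0.83, beside 0.08 for all genes. As wild-type day 0 had 1 library, its spread is taken from the other groups, and dependence on that library could not be checked.

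The members that were higher at day 6 of 2020 in wild type were led by other members. Ptges went from 6.25 CPM to 150 and 155, a log2 change of 4.16 ± 0.17 (SE; edgeR quasi-likelihood test, adjusted p = 4.23e-08). Rsad2 went from 0.189 CPM to 10.4 and 9.56 (5.24 ± 0.37, adjusted p = 1.33e-06 by edgeR), and Meox1 from 0.758 CPM to 38.2 and 33.6 (5.11 ± 0.44, adjusted p = 4.68e-06 by edgeR). Duoxa2 had 0 counts at day 0 and was at least 79.0-fold higher at day 6. Hapln1 had 1 count at day 0, a ratio of 573 with an interval of 103 to 22671, and Arg1 2 counts, a ratio of 201 with an interval of 55.3 to 1659. On the vascular list, Erg went from 0.189 CPM to 9.41 and 7.58 (5.00 ± 0.59, adjusted p = 4.33e-05 by edgeR), Rasgrp3 from 1.37 CPM to 19.5 and 23.7 (3.52 ± 0.38, adjusted p = 2.09e-05) and Sox7 from 4.59 CPM to 19.7 and 30.0 (1.99 ± 0.64, adjusted p = 0.0191). Cd93 had 0 counts at day 0 and 0.228 and 0.611 CPM at day 6, at least 2.88-fold higher by the same floor (adjusted p = 0.026 by edgeR), a call lost without wild-type day 6 replicate 2 (adjusted p = 0.0701) and with DESeq2 (adjusted p = 0.0592).

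The members that were lower in wild type included the early factors. Etv2 went from 2.27 CPM at day 0 to 0.0914 and 0.102 at day 6, a log2 change of -4.90 ± 0.62 (edgeR, adjusted p = 6.75e-05). Sox18 went from 1.99 CPM to 0.228 and 0.153 (-3.77 ± 0.41, adjusted p = 2.47e-05 by edgeR). Eomes went from 8.95 CPM to 2.01 and 2.14 (-2.55 ± 0.33, adjusted p = 8.02e-05 by edgeR). Also lower were Ushbp1 and She, both of the vascular list, and Cav1, the coat protein of caveolae, which went from 11.2 CPM to 2.15 and 1.78 (-2.95 ± 0.21, adjusted p = 1.46e-06 by edgeR). Tie1 went from 1.37 CPM to 0.823 and 0.763 (-1.23 ± 0.36, adjusted p = 0.0117 by edgeR), whereas its 2019 libraries were higher at day 6 than at day 0. In both years Etv2 was lower and Erg higher at day 6 than at day 0.

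Both edited lines were tested over the same days. In the H3.3A knockout, 31 of 62 members were higher at day 6 (40.8% of all genes) and 12 were lower (36.4%). In the H3.3K27A line, 27 were higher (39.5%) and 18 lower (37.2%). Vascular-list members were 8 higher and 5 lower in the knockout and 5 higher and 8 lower in H3.3K27A. Other members were 23 higher and 7 lower, and 22 higher and 10 lower. Etv2 was lower in all 3 genotypes, with 1 count in the day 6 knockout libraries (ratio 0.0176, interval 0.000438 to 0.102) and -3.48 ± 0.55 on the log2 scale in H3.3K27A (adjusted p = 0.000237 by edgeR). Meox1, Ptges, Rsad2, Arg1, Hapln1 and Duoxa2 were called higher in all 3 genotypes. Erg was higher in all 3 too, by 3.37 ± 0.41 in the knockout and 1.5 ± 0.37 in H3.3K27A on the log2 scale (adjusted p = 3.93e-05 and 0.00415 by edgeR). Sox7 was higher by 2.92 ± 0.47 and 3.49 ± 0.56 (adjusted p = 0.000268 and 0.000271 by edgeR).

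**Figure D4:**
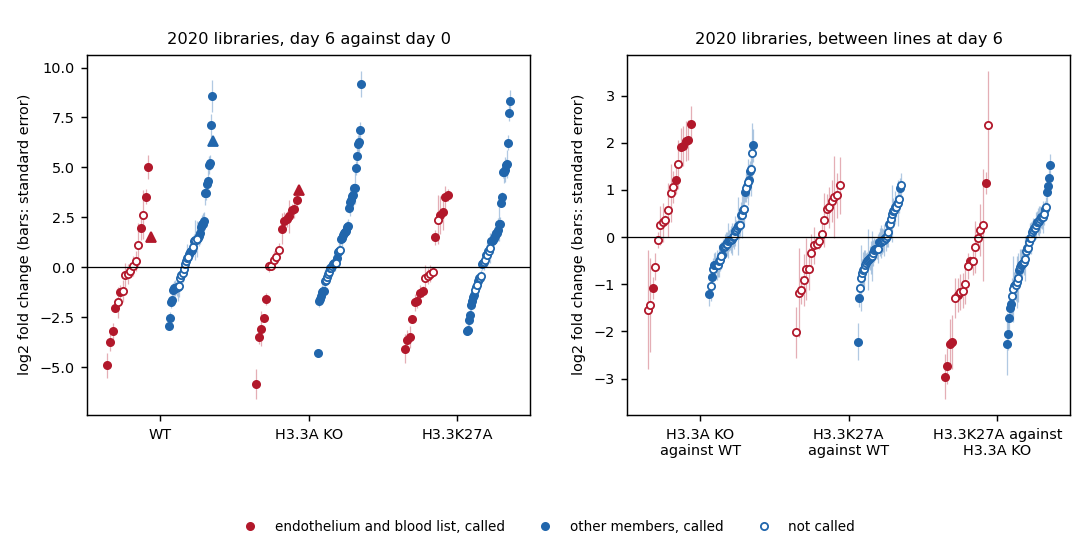
log2 fold change of each tested member in the 2020 libraries, in one panel from day 0 to day 6 within wild type, the H3.3A knockout and H3.3K27A, and in the other between genotypes at day 6. Filled points passed the test, open points did not, bars are the SE and triangles are lower bounds for genes with 0 counts at day 0. Within each genotype members lie on both sides of 0, and between H3.3K27A and wild type only 4 points are filled.

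At day 6, the H3.3A knockout differed from wild type in 15 members. Of 62 members, 11 were higher in the knockout (6.98% of all genes) and 4 lower (4.42%), and the 11 included 6 of 18 vascular-list members. Esam was at 31.6 and 14.3 CPM in the knockout and 4.71 and 5.04 in wild type, a log2 difference of 2.4 ± 0.38 (edgeR, adjusted p = 0.0058). Ptprb was at 2.44 and 2.69 CPM against 0.366 and 1.02 (2.04 ± 0.42, adjusted p = 0.0165 by edgeR). Cldn5 was at 1.01 and 1.49 CPM against 0.274 and 0.458 (1.90 ± 0.41, adjusted p = 0.0192 by edgeR), and Sox18 at 0.742 and 0.746 against 0.228 and 0.153 (2.05 ± 0.42, adjusted p = 0.0168 by edgeR). Tie1 was at 1.91 and 1.44 CPM against 0.823 and 0.763 (1.22 ± 0.30, adjusted p = 0.031 by edgeR). The groups did not overlap for these genes, and Sox18, Tie1, Cldn5 and Ptprb in the knockout were below their 2019 day 3 levels.

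The remaining differences between the knockout and wild type at day 6 were of mixed kinds. Sox7 was at 125 and 43.2 CPM in the knockout against 19.7 and 30.0 (1.93 ± 0.43, adjusted p = 0.0231 by edgeR), with the knockout libraries far apart from each other. Bmp6 was at 48.3 and 24.5 CPM against 9.05 and 12.1 (1.95 ± 0.35, adjusted p = 0.00964 by edgeR). Islr2 was at 102 and 70.9 CPM against 30.9 and 42.5 (1.40 ± 0.22, adjusted p = 0.00592 by edgeR). Cyr61 was at 358 and 244 CPM against 148 and 199 (0.95 ± 0.21, adjusted p = 0.0209 by edgeR). Lower in the knockout were Cav1 (-1.21 ± 0.25, adjusted p = 0.0161 by edgeR), Rasgrp3 (-1.07 ± 0.23, adjusted p = 0.0204), Rsad2 (-0.84 ± 0.18, adjusted p = 0.0192) and Npr1 (-0.37 ± 0.09, adjusted p = 0.0309). The 47 tested vascular-list genes that are not members were 5 higher and 0 lower in the knockout.

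These counts depended on single libraries. Here and below, member counts with a library left out stand without the share of all genes called in the same run. They describe dependence on libraries, and nothing particular to the members is read from them. Without wild-type day 6 replicate 1 the counts were 0 higher and 0 lower, and without replicate 2 they were 3 and 0. Without knockout day 6 replicate 1 they were 9 and 9, without replicate 2 they were 20 and 11, and without knockout day 0 replicate 1 they were 7 and 3. Each of Esam, Sox18, Sox7 and Bmp6 kept its sign but lost the call without either wild-type day 6 replicate (adjusted p of 0.0546 to 0.192 by edgeR), and Ptprb did so without replicate 1 (adjusted p = 0.136). Npr1 also kept its sign and lost the call without either of these replicates, either knockout day 0 library or either H3.3K27A day 6 library (adjusted p of 0.0559 to 0.188 by edgeR). The change from day 0 to day 6 was not called different between the knockout and wild type for any of the 62 members (edgeR interaction, 0.0813% of all genes called), where 14 members had an unadjusted p below 0.05 and DESeq2 called 2. A higher level at day 6 in the knockout is therefore not shown to be a different change over time.

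Markers of primitive and visceral endoderm also differed between these day 6 libraries. Summed over 11 genes, of which Sox7 is one, they were at 2853 and 1998 CPM in the knockout at day 6, 1240 and 1413 in wild type and 1077 and 1240 in H3.3K27A. Gata4, an endoderm factor, was at 564 and 300 CPM in the knockout and 192 and 231 in wild type, and like Sox7 was higher in knockout replicate 1. The 19 endothelium and blood markers summed to 162 and 160 CPM in the knockout, 137 and 142 in wild type and 94.6 and 103 in H3.3K27A, and Kdr was at 9.97 and 13.2 CPM in the knockout and 12.5 and 11.4 in wild type. Their part in the members' differences was not tested.

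The H3.3K27A line differed from wild type at day 6 in 4 members, all other members. Duoxa2 and Npr1 were higher, 2 of 62 (1.13% of all genes), and Arap3 and Ms4a4d were lower, 2 of 62 (0.908%). Npr1 was at 104 and 98.2 CPM in H3.3K27A against 60.7 and 65.7 in wild type (0.71 ± 0.09, adjusted p = 0.00788 by edgeR). Duoxa2 was at 24.0 and 21.4 CPM against 9.92 and 12.7 (1.04 ± 0.22, adjusted p = 0.0458 by edgeR). Arap3, a GTPase-activating protein, was at 6.54 and 5.28 CPM against 14.1 and 15.6 (-1.29 ± 0.18, adjusted p = 0.0116 by edgeR), and Ms4a4d, a tetraspan membrane protein, at 0.499 and 0.281 against 2.06 and 1.78 (-2.21 ± 0.40, adjusted p = 0.0271 by edgeR). All 4 calls were lost without any single day 6 library of wild type or H3.3K27A (0 higher and 0 lower), and without knockout day 6 replicate 1 or replicate 2 the counts were 7 and 8. Without either knockout day 0 library 1 member was higher, and without either H3.3K27A day 0 library the counts were 1 and 1. No member was called for a different change over time against wild type (edgeR interaction, 0.766% of all genes), where 12 had an unadjusted p below 0.05 and DESeq2 called 4. Without knockout day 6 replicate 1 or replicate 2 that count was 7.

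The edited lines differed from each other in 20 members at day 6. Of 62, 6 were higher in H3.3K27A than in the knockout (9.03% of all genes) and 14 were lower (9.64%), a share above the background for the lower ones, and vascular-list members were 1 higher and 6 lower. Ptprb was at 0.408 and 0.281 CPM in H3.3K27A against 2.44 and 2.69 in the knockout (-2.95 ± 0.47, adjusted p = 0.00276 by edgeR). Esam was at 4.18 and 3.37 CPM against 31.6 and 14.3 (-2.73 ± 0.39, adjusted p = 0.00166 by edgeR). Bmp6 was at 7.35 and 12.1 CPM against 48.3 and 24.5 (-2.04 ± 0.35, adjusted p = 0.00443 by edgeR). Egfl7 was at 31.3 and 31.6 CPM against 42.2 and 40.5 (-0.51 ± 0.11, adjusted p = 0.0119 by edgeR). Higher in H3.3K27A were Duoxa2 (1.54 ± 0.22, adjusted p = 0.00189 by edgeR), Hapln1 (1.26 ± 0.26, adjusted p = 0.0109), Rasgrp3 (1.14 ± 0.23, adjusted p = 0.00947) and Npr1 (1.09 ± 0.09, adjusted p = 0.00014). Cryab was at 9.62 and 11.8 CPM in H3.3K27A against 78.0 and 13.9 in the knockout (-2.26 ± 0.65, adjusted p = 0.0401 by edgeR), and without knockout replicate 1 the difference was -0.40 (adjusted p = 0.266). The Cryab call was also lost without any other library left out in turn except knockout day 6 replicate 2 and the wild-type day 0 library.

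Without H3.3K27A day 6 replicate 1 or replicate 2, 2 members were higher and 4 or 5 lower. Without either wild-type day 6 library 9 were lower, and without knockout day 6 replicate 2, 23 were lower. Cav1, Cd93, Hapln1, Rasgrp3 and Ushbp1 kept their sign and lost the call without either H3.3K27A day 6 library (adjusted p of 0.0509 to 0.191 by edgeR).

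A direct test of whether the change from day 0 to day 6 differed between the edited lines called 3 of 62 members (5.39% of all genes). Npr1 went from 25.7 and 29.2 CPM to 104 and 98.2 in H3.3K27A and from 25.5 and 26.4 to 41.0 and 47.5 in the knockout, a difference of 1.02 ± 0.13 in log2 change (edgeR interaction, adjusted p = 0.00382). Islr2 went from 21.7 and 21.1 CPM to 30.2 and 36.2 in H3.3K27A and from 8.27 and 9.75 to 102 and 70.9 in the knockout (-2.74 ± 0.33, adjusted p = 0.00297 by edgeR). Esam went from 2.80 and 4.41 CPM to 4.18 and 3.37 in H3.3K27A and from 3.31 and 3.68 to 31.6 and 14.3 in the knockout (-2.75 ± 0.58, adjusted p = 0.0275 by edgeR). The Esam call was lost without any single knockout day 0, H3.3K27A or wild-type day 6 library (adjusted p of 0.0528 to 0.135 by edgeR), and the count was 12 and 16 without knockout day 6 replicate 1 and replicate 2.

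Chromatin at the members' starts was measured in wild-type cells and did not enter the selection. A promoter was counted as marked where the authors' filtered peaks of both duplicates lay within 1000 bases of the start. The H3K27me3 antibody marked 31 of 67 members at day 0 (46.3%), beside 17.8% of 24301 genes, and 21 at day 6, beside 10.8%. The H3.3K27me3 antibody marked 18 at day 0 (26.9%), beside 11% of genes, and 2 at day 6, beside 2.62%. H3.3 marked 15 at day 0, beside 37.4%, and 7 at day 6, beside 25.1%. H3 marked 2 at day 0, beside 5.28%, and 1 at day 6, beside 2.18%. As shares of promoters at day 0, the members were above all genes for both K27me3 antibodies and below them for H3.3. The rule favours genes low at day 0 (median 1.03 CPM), and the genes beside them were not matched for level. These shares are therefore a description and are not read as particular to a day 3 peak. The counts depended on the duplicates. For H3.3K27me3 at day 0, duplicate 1 alone marked 29 members (43.3%, beside 17.7% of genes) and duplicate 2 alone 23 (34.3%, beside 16.9%). For H3K27me3 at day 6, duplicate 1 alone marked 32 (47.8%, beside 17.9%). For H3.3, duplicate 2 alone marked 24 at day 0 (35.8%, beside 48.0%), and duplicate 1 alone marked 23 at day 6 (34.3%, beside 41.7%). The members stayed on the same side of all genes in each of these.

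**Figure D5:**
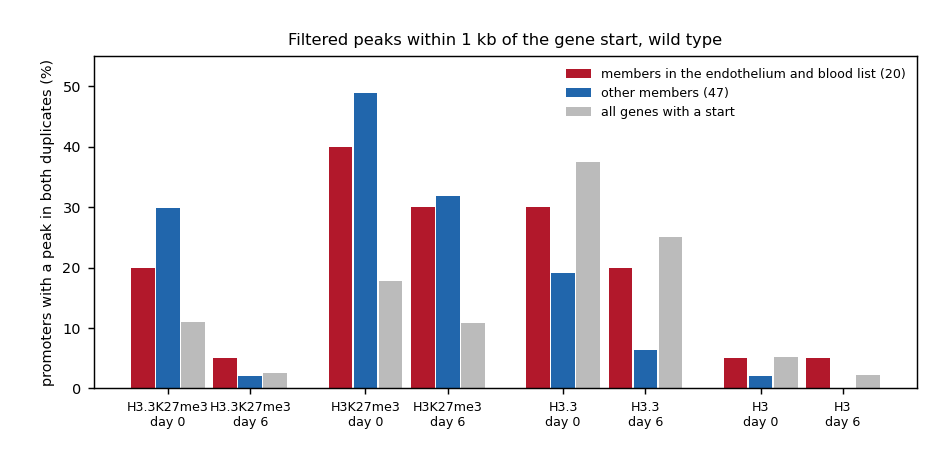
Percent of promoters with a filtered peak of both duplicates within 1000 bases of the start, by antibody and day, for the 20 vascular-list members, the 47 other members and all 24301 genes with a start. H3K27me3 bars of both member groups are above the bar of all genes on both days, and the H3.3 bars of both are below it.

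The mark was on both kinds of member. At day 0, H3K27me3 peaks lay at 8 of 20 vascular-list and 23 of 47 other members, and H3.3K27me3 peaks at 4 and 14. Of the 31 members with H3K27me3 at day 0, 20 kept it at day 6 and 11 had it at day 0 only, and Clec14a had it at day 6 only. Of all 24301 genes, 2215 had it on both days, 2104 at day 0 only and 415 at day 6 only. Of the 18 members with H3.3K27me3 at day 0, Acta1 and Lyl1 kept it and 16 had it at day 0 only. Of all genes, 385 had H3.3K27me3 on both days and 2290 at day 0 only. At day 0, 17 members carried both marks, 14 carried H3K27me3 only, Myzap carried H3.3K27me3 only and 35 carried neither. For all genes these counts were 2260, 2059, 415 and 19567. The members' counts are a description. Sequencing depth was least for the day 6 H3.3K27me3 samples, at 30.4 and 34.2 M tags where the others had 49.9 to 74.2 M, and the part of this in the lower day 6 count was not tested.

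The developmental transcription factors were among the marked members. The peak at Lyl1 had the authors' fold enrichment of 9.12 and 6.15 for H3K27me3 at day 0 and 4.32 and 6.46 at day 6. Eomes was at 5.51 and 5.69, then 4.18 and 3.69. Fli1 was at 4.56 and 4.30, then 4.03 and 2.46, and Sox7 at 3.93 and 4.15, then 2.30 and 2.92. Erg (3.78 and 3.69) and Sox18 (3.46 and 4.00) were marked at day 0 and not in both duplicates at day 6. Erg, Fli1, Sox7, Lyl1 and Eomes also carried H3.3K27me3 at day 0, with enrichments from 2.32 at Fli1 to 4.65 at Lyl1. Among effectors, Islr2 (3.93 and 4.76), Acta1 (5.82 and 5.84), Duoxa2 (5.19 and 5.69) and Cldn5 (4.56 and 4.46) were marked by H3K27me3 at day 0. Tie1, Egfl7, Ptges, Meox1 and Etv2 had no H3K27me3 peak in both duplicates on either day, and the Etv2 H3.3 peak at day 0 had an enrichment of 4.03 and 2.66. For Ptges, the start used for peaks (chr2:30931020) was not that of the promoter searched for motifs. Peaks at that other promoter were not examined.

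The authors' deposited tables of regions compared between days (log2 day 0 minus day 6) covered 35 members for H3K27me3. Of these 35, 24 were higher there at day 0 at a false discovery rate (FDR) below 0.05, beside 52.2% of genes with a region, and 0 were higher at day 6, beside 2.99%. Islr2 had the largest difference, 0.68 (FDR 4.26e-11) over chr9:58182793-58209247, in the authors' deposited table. It was followed there by Cyr61 at 0.56 (FDR 5.56e-05, chr3:145643553-145655408), Bik, a pro-apoptotic gene, at 0.56 and Eomes at 0.52 (FDR 3.31e-10, chr9:118462552-118493598). Erg (0.44), Sox18 (0.42), Fli1 (0.39) and Sox7 (0.37) were also higher at day 0 in the authors' deposited table. These regions reach past single promoters, so a value belongs to the region.

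For H3.3, the authors' deposited table held regions at 26 members, of which 15 were higher at day 0 (61% of genes with a region) and 3 at day 6 (4.67%). The largest day 0 excess was at Gja4 (0.72), followed by She (0.62), Esam (0.51) and Etv2 (0.50), in the authors' deposited table. Ptprb (-0.45), Hapln1 (-0.36) and Cyr61 (-0.26) had more H3.3 at day 6 there. For H3, regions at 3 members, Acta1, Lyl1 and Ushbp1, were all higher at day 0 (55.3% of genes with a region) and 0 were higher at day 6 (3.83%) in the authors' deposited table. Ptprb and Cyr61 also had H3.3 peaks of both duplicates at day 6, with enrichments of 2.24 and 2.46, and 3.13 and 2.92.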

How the data were processed

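RNA was measured in 17 libraries, 6 of 2019 and 11 of 2020, and chromatin in 16 ChIP-seq libraries (48 sequenced samples, 3 runs each). The deposited gene files hold whole-number read counts. Per the submitters' processing notes, STAR 2.5.2a, HTSeq, MACS2, DiffBind, deepTools and DESeq2 were used with the mm10 build. The strand setting of counting is not given in the sources used here, so a gene and an overlapping antisense gene cannot be told apart. The deposited peak files hold the authors' fold enrichment, a ratio per filtered peak in each ChIP-seq duplicate. The deposited DiffBind tables hold log2 differences between days with p-values and FDR. No column was left unmapped to a sample (0).

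Reads assigned to no gene (11.3% to 43.3%) or to several (7.40% to 11.9%) were left out of library sizes. CPM were counts scaled to all gene-assigned reads, and 3 counts over a group served as the floor where a group had 0 counts. Ratios on 1 to 3 counts have exact 95% intervals that cover counting error only. The 2020 counts were fitted in 1 model over all 11 libraries with edgeR 4.0.16 (R 4.3.3, TMM scaling, filterByExpr, quasi-likelihood F test, Benjamini-Hochberg adjustment over 14760 genes, threshold 0.05), after the script was tested on simulated data. DESeq2 1.42.0, other scaling, no filter, a replicate block and left-out libraries were alternatives. Same-numbered libraries were not treated as pairs, since the labels give no pairing and their deviations from group means had correlations from -0.36 to 0.14. Promoter peaks needed 1 base of overlap within 1000 bases of the RefSeq start (GRCm38.p6). For some members, among them Ptges and Cd36, this was not the start of the promoter searched for motifs. Genes are named if they are in a list, among the highest or most changed members, nearest the threshold, or among the largest called changes of each 2020 comparison. Stab1, Gja4, Cryab and further members outside that rule were named after their values were seen. The members and lists were chosen with earlier results of these data known.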

Additional observations from a re-analysis of the deposited data

Results flagged for a closer look

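A test of the difference between the edited lines in their change from day 0 to day 6 (edgeR interaction term) called 3 of 62 members, a share no higher than the 5.39% of all genes called. The log2 change of Npr1 was larger in H3.3K27A than in the H3.3A knockout by 1.02. The log2 change of Islr2 was smaller in H3.3K27A, with a difference of -2.74, and that of Esam with a difference of -2.75. The Esam call was lost when any 1 of the knockout day 0, H3.3K27A or wild-type day 6 libraries was left out (adjusted p of 0.0528 to 0.135 by edgeR).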

How the results depend on the processing

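Selection at a fold of at least 3 gave 108 members and at a fold of at least 6 gave 32, and leaving out 1 library at a time gave 64 to 71. Within the replicate block, the B1 libraries alone gave 71 members (63 of the 67) and the B2 libraries alone 65 (58 of the 67). The day 6 against day 0 counts were stable when libraries were left out: 21 to 28 higher and 10 to 15 lower in wild type, 28 to 32 and 11 to 12 in the knockout, and 21 to 29 and 16 to 21 in H3.3K27A. Counts between genotypes at day 6 were not. The ranges were 0 to 20 higher and 0 to 11 lower for the knockout against wild type, 0 to 7 and 0 to 8 for H3.3K27A against wild type, and 2 to 8 and 4 to 23 for H3.3K27A against the knockout. For differences in change over time they were 0 to 16 (knockout against wild type), 0 to 7 (H3.3K27A against wild type) and 2 to 16 (H3.3K27A against the knockout). DESeq2 called 6 members higher in the knockout than in wild type, and 2, 4 and 6 for the 3 differences in change. Without a filter on low counts the 3 differences in change had 2, 3 and 8 calls, and 5 members were lower in H3.3K27A than in wild type.

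With the replicate number as a block, although the numbers do not pair the libraries, 7 members were higher in the knockout than in wild type, 1 was higher and 1 lower in H3.3K27A than in wild type, and 9 were lower in H3.3K27A than in the knockout. The cause was not tested.

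Peak counts fell or rose with the demand on duplicates. In each pair below the share of all genes under the same setting follows the members' count. A peak in either duplicate gave 34 members (23.6% of all genes) at day 0 and 7 (12.4%) at day 6 for H3.3K27me3, 33 (21.9%) at day 6 for H3K27me3, 29 (54.5%) and 27 (46.7%) for H3.3, and 7 (19.8%) and 3 (7.30%) for H3. Duplicate 1 alone gave 29 (17.7%) and 5 (9.95%) for H3.3K27me3, 32 (17.9%) at day 6 for H3K27me3, 23 (41.7%) at day 6 for H3.3 and 4 (15.5%) at day 0 for H3. Duplicate 2 alone gave 4 (5.09%) at day 6 for H3.3K27me3, 24 (48.0%) and 11 (30.0%) for H3.3, and 5 (9.58%) and 3 (5.43%) for H3. For H3.3K27me3 at day 6, a window of 250 bases and an overlap of at least 500 bases each gave 1. In the 250 bases before the start alone, AGGTCA was in 3 and TGTTTAC in 1. Of 56 named pairs of member and comparison, 34 were called under every alternative run, and of 828 values 85 lost the call and 0 changed sign. Members under 1 CPM rest on few counts, which limits their precision.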
